A study of Mus musculus with 6 samples.

Results

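The windows described here lay more than 500 and up to 50000 bp downstream of the nearest transcription start site of an NM_ transcript, the RefSeq class of protein-coding messenger RNAs. They were taken from the authors' 3 tables of differentially methylated windows by this distance alone, not by their methylation values. Of 2135 windows in any of the tables, 610 were such downstream windows (28.6%), near 384 genes. Methylation had been measured by reduced representation bisulfite sequencing (RRBS), in which MspI cuts DNA at CCGG and bisulfite tells methylated from unmethylated cytosines in the resulting short, CpG-rich fragments. The cells were C57BL6 mouse bone marrow cells immortalised with HoxA9, carried in irradiated recipient mice for 4 weeks and then sorted from bone marrow by GFP. One group of 2 libraries was transduced with wild-type IDH1 (pSF91-IDH1wt-IRES-EGFP, here IDH1wt) and another group of 2 libraries with mutant IDH1 (pSF91-IDH1mut-IRES-GFP, R132C, here IDH1mut). The third group of 2 libraries carried the empty vector and came from recipients that received 1 mg of R-2HG daily over the 4 weeks (here R-2HG). HoxA9 is shared by all 3 groups, so each group is a model of myeloid cells already driven by this factor, and vector and treatment cannot be told apart where R-2HG is compared with a transgene. An empty-vector group without R-2HG was not analysed here.

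Each value is the authors' difference between a pair of groups, in percentage points of methylation. No value per library or per group was analysed, so no SD, no interval and no test of this work stands beside them, and the read depth behind a window is unknown. Only windows past a threshold are in the tables, with absolute differences of at least 25 points and q-values of at most 0.00995. A window that is absent from a table may have differed less, have missed the q threshold or have been too thinly covered. The text gives each difference as the first-named group minus the second and calls a higher value a gain. The tables do not state their sign. At the 2 downstream windows that are in every table the 3 differences added up without a residual if the table of IDH1wt with R-2HG was reversed, and all 208 windows in exactly 2 tables then had a remaining difference under 25 points. Which way round the whole set runs is not fixed by this check, and under the opposite reading every gain here is a loss.

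Methylation of CpGs is written by DNMT enzymes and its removal is started by TET enzymes, which need 2-oxoglutarate. Wild-type IDH1 makes 2-oxoglutarate, whereas the mutant enzyme makes R-2HG, which competes with it at TET enzymes and other dioxygenases. Start sites in CpG islands are mostly unmethylated, while the DNA downstream of them, along gene bodies, is mostly methylated except at CpG islands and enhancers within it. Windows at this distance may therefore hold exons, introns, enhancers or the next intergenic stretch. No mm9 annotation was used here, so exon, intron and UTR are not given, and a gene symbol says only whose start site is nearest.

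The distances below are counted from start sites such as the following 4, which belong to genes with large downstream differences. They are RefSeq promoters of 300 bases (250 before the start and 50 after it), printed 5′ to 3′ with each CG, the dinucleotide that RRBS reads, in capitals. Their coordinates are of GRCm38.p6 and cannot be set beside the mm9 coordinates of the windows, which lie outside these bases.
Bmi1, chr2:18676768-18677067, plus strand: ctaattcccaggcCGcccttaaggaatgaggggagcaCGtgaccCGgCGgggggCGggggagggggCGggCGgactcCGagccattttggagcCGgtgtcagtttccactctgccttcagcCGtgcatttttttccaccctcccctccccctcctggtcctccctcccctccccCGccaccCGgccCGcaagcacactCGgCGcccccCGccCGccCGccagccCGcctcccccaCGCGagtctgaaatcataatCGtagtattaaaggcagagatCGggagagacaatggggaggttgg
Gata3, chr2:9878551-9878850, minus strand: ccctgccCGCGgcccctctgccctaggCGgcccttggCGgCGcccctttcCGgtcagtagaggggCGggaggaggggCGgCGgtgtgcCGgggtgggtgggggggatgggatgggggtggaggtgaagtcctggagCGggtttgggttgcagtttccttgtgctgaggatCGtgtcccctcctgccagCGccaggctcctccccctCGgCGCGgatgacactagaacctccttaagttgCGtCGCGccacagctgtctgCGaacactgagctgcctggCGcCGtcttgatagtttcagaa
Mab21l2, chr3:86548234-86548533, minus strand: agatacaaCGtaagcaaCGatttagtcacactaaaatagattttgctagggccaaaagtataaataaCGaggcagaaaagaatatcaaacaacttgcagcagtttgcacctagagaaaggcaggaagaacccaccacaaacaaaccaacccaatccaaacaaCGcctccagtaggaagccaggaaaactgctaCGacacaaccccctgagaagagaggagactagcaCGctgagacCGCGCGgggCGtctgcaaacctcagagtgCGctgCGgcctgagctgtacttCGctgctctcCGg
Zfp503, chr14:21989552-21989851, minus strand: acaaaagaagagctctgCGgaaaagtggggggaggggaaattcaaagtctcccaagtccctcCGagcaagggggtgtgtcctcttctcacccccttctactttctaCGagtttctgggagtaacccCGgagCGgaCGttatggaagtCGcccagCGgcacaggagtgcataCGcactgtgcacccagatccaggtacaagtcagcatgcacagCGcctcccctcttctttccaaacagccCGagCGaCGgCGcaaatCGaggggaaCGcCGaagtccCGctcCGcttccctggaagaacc
Bmi1 had 23 CG and 3 CCGG in this stretch, Gata3 22 and 2, Mab21l2 14 and 1, and Zfp503 19 and 1, where CG and CCGG read the same on both strands and each CCGG contains a counted CG. Of all protein-coding genes in the promoter table, 28% had at least as many CG as Bmi1, 30.5% as many as Gata3, 49.7% as many as Mab21l2 and 37.8% as many as Zfp503. All 384 nearest genes matched a RefSeq gene by transcript or symbol, but the promoter table held 286 of them (74.5%). This is under the 80% set as a minimum, so a check of base composition over the gene set would be void and none is given.

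In IDH1mut cells, compared with IDH1wt cells, downstream windows were higher near Mab21l2, Lrfn1, Chrnb1, Msl3l2, Aqp12, Cbx8 and Bmi1. They were lower near Hoxc6, Dusp8, Tenc1, Meis1, Efnb1 and Ski. Tenc1, with -45.2 points, was named after its values were seen. The authors' deposited table listed 422 downstream windows near 271 genes. Of these 268 were gains and 154 losses, so that gains made up 63.5% beside 69.3% of all 1493 windows of that comparison. The gains had a median of 30.6 points (quartiles 26.8 and 36.6) and the losses a median of -28.4 points (quartiles -33.8 and -26.6) per the authors' deposited table. Over all windows of the comparison the medians were 30.6 and -28.9 points. Windows started 250 bp apart and were 500 bp long, so neighbours share CpGs, and 100 of the 422 had exactly the value of another window of the same gene. Joined within 1000 bp, they formed 275 loci, of which 166 were gains and 109 losses.

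In R-2HG cells, compared with IDH1wt cells, downstream windows were higher near Vmn1r52, Msl3l2, Mtss1, Nol7 and Zfp503 and lower near Snx6, Wipi1, Hoxc6 and Kcnj14. The authors' deposited table held 213 downstream windows near 133 genes, of which 131 were gains and 82 losses, so that gains made up 61.5% beside 68.0% of all 750 windows. The gains had a median of 28.9 points and the losses of -28.3 points per the authors' deposited table, against 29.4 and -28.6 points over all windows. The 213 windows formed 135 loci, 80 of them gains and 55 losses.

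Compared with IDH1mut cells, downstream windows of R-2HG cells were lower near Kcnj14, Fmn1, Bmi1, Ppp1r13l, Mab21l2 and Gata3. They were higher near Ltb4r1, Elovl6, Prdm6 and Mn1. Gata3 and Mn1 were named as members of the gene lists and for windows in 2 tables, not as the next largest differences. Losses near Crybb3, Soat2 and Cep85 were larger than those at Gata3. Gains near Nudt10, Tpcn1, Slc25a5 and further genes were larger than those at Mn1. The authors' deposited table of this comparison listed 187 downstream windows near 116 genes, 68 gains and 119 losses, so that gains made up 36.4% beside 35.5% of all 603 windows. Their medians were 29.2 and -29.7 points per the authors' deposited table, against 29.0 and -29.2 points over all windows. They formed 118 loci, 45 gains and 73 losses.

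**Figure D1:**
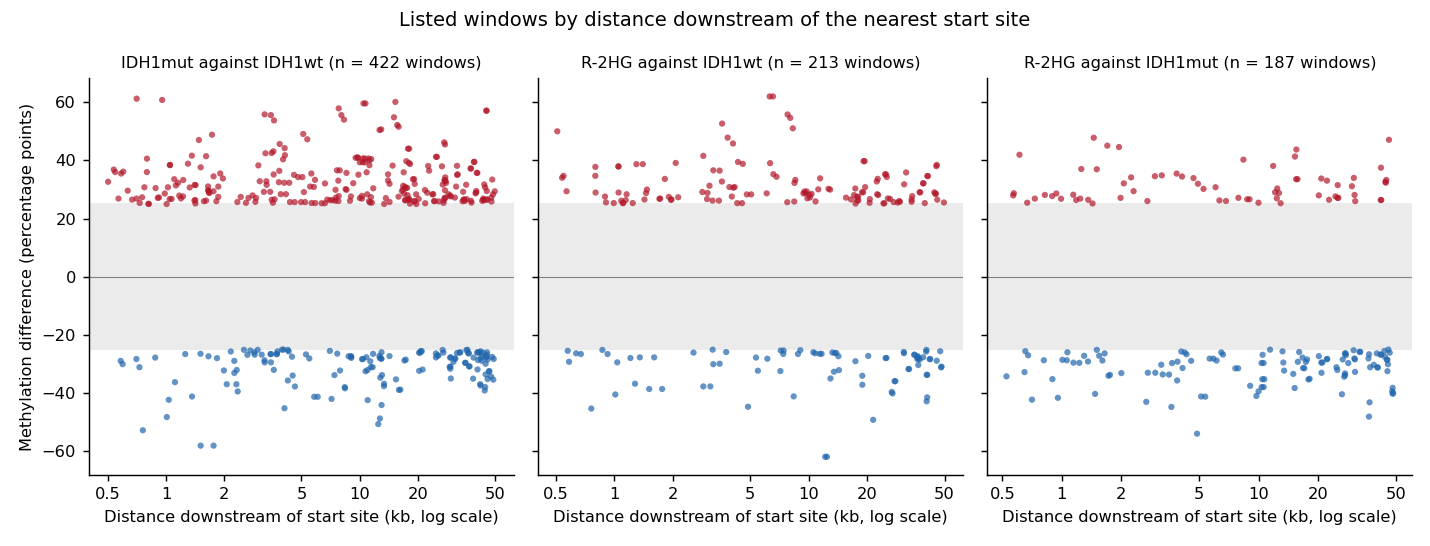
Methylation difference in percentage points (vertical axis) of each listed downstream window against its distance from the nearest start site in kb (horizontal log axis), in the 3 comparisons. Red points are gains, blue points losses, and the grey band marks differences under 25 points, which the tables do not hold; gains reach 61.2, 62.0 and 47.8 points and losses -58.1, -61.9 and -54.0 points.

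The balance of gains and losses varied with the distance. In the class from 500 to 2000 bp, 61 of 78 windows were gains in IDH1mut against IDH1wt (78.2%), and in that from 20000 to 50000 bp 69 of 131 were (52.7%). The classes between did not form a steady order, with 54.3% at 2000 to 5000 bp, 72.7% at 5000 to 10000 bp and 68.2% at 10000 to 20000 bp (each class starts just above its lower bound). By loci, the nearest class had 42 gains of 54 and the farthest 42 of 83. For R-2HG against IDH1wt the share of gains was 66.7%, 75%, 65.5%, 57.9% and 52.2% from the nearest class to the farthest. For R-2HG against IDH1mut it was 47.6%, 37.0%, 42.9%, 31.3% and 29.2%. By windows, the farthest class had the lowest share of gains in all 3 comparisons. By loci this held for R-2HG against IDH1wt only (53.3%), since the class from 2000 to 5000 bp was lower for IDH1mut against IDH1wt (48.9% against 50.6%) and the class from 10000 to 20000 bp for R-2HG against IDH1mut (26.3% against 32.5%). Differences of at least 40 points made up 18 of 88 windows at 10000 to 20000 bp in IDH1mut against IDH1wt but 6 of 131 at 20000 to 50000 bp per the authors' deposited table. No such drop was seen for R-2HG against IDH1wt (2 of 38 and 4 of 69) or against IDH1mut (2 of 32 and 6 of 65). Among all listed windows of the 3 comparisons, 14.1%, 10% and 9.62% had differences of this size. No test of these shares was made, since every window of a comparison comes from the same libraries and the 3 comparisons share groups.

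**Figure D2:**
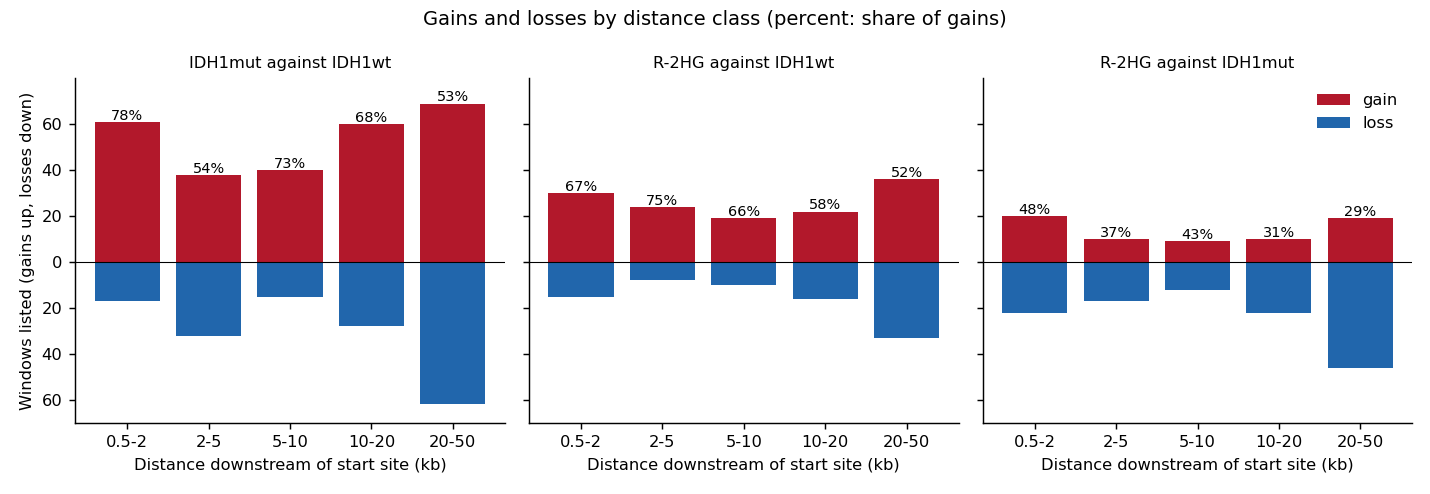
Number of downstream windows listed as gains (red, upward) and losses (blue, downward) in 5 classes of distance from the start site in kb, in the 3 comparisons, with the share of gains above each bar. In IDH1mut against IDH1wt the share is 78.2% in the nearest class and 52.7% in the farthest.

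Beside the other positions, downstream windows had a lower share of gains than promoter windows (2000 bp before to 500 bp after the start) in IDH1mut against IDH1wt, 63.5% against 73.9%. Windows 2000 to 50000 bp upstream had 66.8% and windows beyond 50000 bp 74.4%. In R-2HG against IDH1wt the downstream share of 61.5% stood between 63.3% for promoters and 59.8% for upstream windows, with 81.4% beyond 50000 bp. In R-2HG against IDH1mut it was 36.4% against 26.8% in promoters, 31.5% upstream and 36.4% beyond 50000 bp. These shares are descriptions and were not tested. Few genes had a listed promoter window as well: 7 of 271 for IDH1mut against IDH1wt, 4 of 133 for R-2HG against IDH1wt and 4 of 116 for R-2HG against IDH1mut. In 6 of the 7, 4 of the 4 and 3 of the 4, every promoter window ran the same way as the largest downstream window. Windows on either side of the 500 bp bound can overlap and share CpGs, so this agreement may be partly built in and was not tested. The X chromosome held 8, 2 and 2 of the downstream windows in the 3 comparisons. These were 1.90%, 0.94% and 1.07% of them, beside 3.28%, 3.6% and 2.65% of all listed windows, a difference that was not tested.

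Among homeobox genes, which set positional identity in the embryo and of which several HOX members act in blood progenitors, the largest downstream differences were losses at Hoxc6. Hoxc6 had 4 windows from 760 to 1760 bp, with -52.8, -48.2, -58.1 and -58.1 points for IDH1mut against IDH1wt per the authors' deposited table (chromosome 15, 102840751 to 102842250, mm9). The same 4 windows had -45.3, -40.5, -38.6 and -38.6 points for R-2HG against IDH1wt per the authors' deposited table. Subtraction put R-2HG 7.45 to 19.5 points above IDH1mut there, under the threshold of 25 points. The 2 comparisons use the same IDH1wt libraries, so their values are not independent. Hoxc6 also had 2 promoter windows in each comparison, all losses.

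Hoxb4, which expands blood stem cells when overexpressed, had gains of 31.5 and 28.8 points at 1422 and 1672 bp for IDH1mut against IDH1wt per the authors' deposited table (chromosome 11, 96181001 to 96181750). Its neighbour Hoxb5 had a gain of 26.5 points at 1427 bp for R-2HG against IDH1wt per the authors' deposited table. Hoxa10 was higher by 28.6 points at 939 bp in R-2HG than in IDH1mut per the authors' deposited table. These 3 genes were each listed in 1 comparison. Alx4, a limb and skull homeobox gene, had gains of 26.1 and 25.5 points at 37412 and 37662 bp for IDH1mut against IDH1wt per the authors' deposited table (q = 7.9e-11 and 2.0e-10). Of the 119 homeobox genes of the list, 6 were listed for IDH1mut against IDH1wt, 4 as gains and 2 as losses. Meis1, the cofactor of HoxA9, was the other loss, with -42.4 points at 10973 bp per the authors' deposited table, and it was named after its values were seen. For R-2HG against IDH1wt 1 was a gain and 1 a loss, and for R-2HG against IDH1mut 1 was a gain. Over all genes with downstream windows 59.8%, 58.6% and 37.1% had gains alone in the 3 comparisons. Among the genes of all lists, 3.47%, 1.68% and 1.98% were listed.

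Outside the homeobox list, 3 of 103 developmental regulators had downstream windows for IDH1mut against IDH1wt, all gains. Over all lists 3.47% of genes were listed in this comparison, and 59.8% of all genes with downstream windows had gains alone. The direction of so few genes depends on which genes the list holds. Myt1l and Neurod6, developmental genes outside it that were picked after their values were seen, had losses of up to -26.6 and -25.2 points. Mab21l2, a gene of eye and body wall development, had 61.2 and 60.8 points at 706 and 956 bp per the authors' deposited table (chromosome 3, 86350751 to 86351500). R-2HG was lower than IDH1mut by -42.3 and -41.6 points in these windows per the authors' deposited table, and subtraction left R-2HG 18.9 and 19.2 points above IDH1wt. Mab21l2 also had -42.2 points for R-2HG against IDH1mut at 456 bp, in a promoter window that overlaps the one at 706 bp. Its paralogue Mab21l1 was higher in R-2HG than in IDH1mut by 28.7 and 28.1 points at 571 and 821 bp per the authors' deposited table. The paralogues thus had opposite signs in this comparison. Sox13, a SoxD transcription factor gene, had gains of 31.0 and 30.9 points at 5540 and 5790 bp for IDH1mut against IDH1wt per the authors' deposited table. Tbx18, a T-box gene, was lower in R-2HG than in IDH1mut, with -26.8 points at 6596 bp per the authors' deposited table.

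Zfp503, a zinc finger corepressor gene, had more downstream windows than any other gene for R-2HG, in 2 stretches. From 3574 to 4574 bp its 5 windows had 32.7, 47.8, 45.8, 39.5 and 38.8 points for R-2HG against IDH1wt per the authors' deposited table. From 6074 to 6824 bp another 4 windows had 28.7, 39.0, 35.2 and 34.4 points per the authors' deposited table (chromosome 14, 22801501 to 22805250 over both stretches). IDH1mut was listed only in the nearer stretch, with 32.5, 32.3, 32.3 and 35.0 points from 3824 to 4574 bp per the authors' deposited table. In the farther stretch R-2HG was higher than IDH1mut at 6324 bp, by 26.2 points per the authors' deposited table, and subtraction put IDH1mut there at 12.8 points above IDH1wt. The nearer stretch was therefore shared by both groups under the authors' threshold, while the farther was listed for R-2HG only.

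Bmi1, part of the Polycomb complex and required for self-renewing stem cells, had 3 downstream gains for IDH1mut against IDH1wt of 53.7, 45.6 and 41.8 points at 3608, 3858 and 4108 bp per the authors' deposited table (chromosome 2, 18602251 to 18603250). R-2HG differed from IDH1mut at the same windows by -44.8, -35.7 and -31.4 points per the authors' deposited table. By subtraction R-2HG stood 8.96, 9.97 and 10.4 points above IDH1wt, so IDH1mut was the group that stood apart. Cbx8, another Polycomb subunit gene, had gains of 55.8 and 55.6 points at 3228 and 3478 bp for IDH1mut against IDH1wt per the authors' deposited table (chromosome 11, 118898251 to 118899000). It also had gains of 36.6 and 36.5 points for R-2HG against IDH1wt per the authors' deposited table. Unlike at Bmi1, the windows at Cbx8 were listed for both groups against IDH1wt. Mis18a, a centromere protein gene, had 27.1 points in 2 windows with an identical value for IDH1mut per the authors' deposited table (q = 3.4e-06). Nsd1, a histone H3 methyltransferase gene, had a gain of 25.3 points at 1110 bp for R-2HG against IDH1wt per the authors' deposited table. Prdm6, a repressor of smooth muscle genes, was higher by 27.2 points at 15553 bp in R-2HG than in IDH1wt and by 43.7 points than in IDH1mut per the authors' deposited table. Chromatin regulators on the list of 96 were gains in 3 of 3 listed genes for each group against IDH1wt. Over all lists 3.47% of genes were listed for IDH1mut and 1.68% for R-2HG, and 59.8% and 58.6% of all genes with downstream windows had gains alone. The direction of so few genes depends on which genes the list holds. Morc2a, a chromatin gene outside it that was picked after its values were seen, had losses of up to -32.5 points for IDH1mut.

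Mn1, a transcription coregulator that causes myeloid leukaemia when overexpressed, differed between IDH1mut and R-2HG. In R-2HG cells, against IDH1wt, it had gains of 29.4, 33.6 and 39.1 points at 567, 1817 and 2067 bp per the authors' deposited table (chromosome 5, 111847751 to 111849750). For IDH1mut against IDH1wt it had a loss of -32.0 points at 2317 bp per the authors' deposited table. R-2HG was higher than IDH1mut at 567, 2067 and 2317 bp, by 28, 32.1 and 29.4 points per the authors' deposited table. At 2317 bp subtraction put R-2HG -2.63 points from IDH1wt, and at 2067 bp IDH1mut 7.02 points from it. Neighbouring windows at this gene thus differed in which group stood apart. Hlf, a transcription factor of blood stem cells, had losses of -28.9 and -27.3 points at 42482 and 42732 bp for IDH1mut against IDH1wt per the authors' deposited table. Of 53 stem and progenitor regulators 3 were gains and 3 losses for IDH1mut against IDH1wt, and 1 was a gain for R-2HG against IDH1wt. Among the genes of all lists, 3.47% and 1.68% were listed in these comparisons. Gains alone were found at 59.8% and 58.6% of all genes with downstream windows. The lists were chosen with earlier results of these data known, and these counts were not tested.

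Gata3, a factor of T cells and of some progenitors, had gains of 33.3, 47.0 and 48.8 points at 1228, 1478 and 1728 bp for IDH1mut against IDH1wt per the authors' deposited table (chromosome 2, 9798001 to 9799000). R-2HG was lower than IDH1mut by -29.6, -40.3 and -34.0 points there per the authors' deposited table, which by subtraction left it 3.64, 6.71 and 14.8 points above IDH1wt. Zap70, a kinase of T cell receptor signalling, had 33.5 points at 18797 and 19047 bp for IDH1mut and 29.0 points for R-2HG, each against IDH1wt, per the authors' deposited table (q = 2.8e-05 and 0.00013). Ebf1, the B cell lineage factor, had a gain of 41.6 points at 2867 bp for R-2HG against IDH1wt per the authors' deposited table. Against IDH1wt, 3 of 36 genes of the lymphoid list were gains for IDH1mut and 2 of 36 for R-2HG, with no losses. This direction depends on which genes the list holds: Ptprcap and Ccr8, lymphocyte genes outside it that were picked after their values were seen, had losses of -26.0 and -25.5 points for IDH1mut per the authors' deposited table. Methylation at a lineage gene does not show how many cells of that lineage a sample held, and cell composition was not tested. None of 37 genes of the myeloid list had a downstream window against IDH1wt, where 3.47% of all list genes had one for IDH1mut and 1.68% for R-2HG, so a count of 0 in a list of this size is near the background. Outside the list, the receptor gene Fpr2 of myeloid cells, picked after its values were seen, had gains of 41.2 points for IDH1mut and 35.2 points for R-2HG against IDH1wt per the authors' deposited table. On the list, Mmp9, a neutrophil gelatinase gene, was higher by 30.2 points at 5252 bp in R-2HG than in IDH1mut per the authors' deposited table (q = 2.9e-09). None of 20 erythroid genes was listed in any comparison, again a count near the background. Of 23 stromal and endothelial genes 1 was listed as a gain for IDH1mut against IDH1wt, none for R-2HG against IDH1wt and 1 as a gain for R-2HG against IDH1mut. It was Col1a1, which encodes a collagen chain and was higher in R-2HG than in IDH1mut by 33.9 and 32.0 points at 4669 and 4919 bp per the authors' deposited table, and in IDH1mut than in IDH1wt by 25.2 points at 1419 bp (q = 0.0011).

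**Figure D3:**
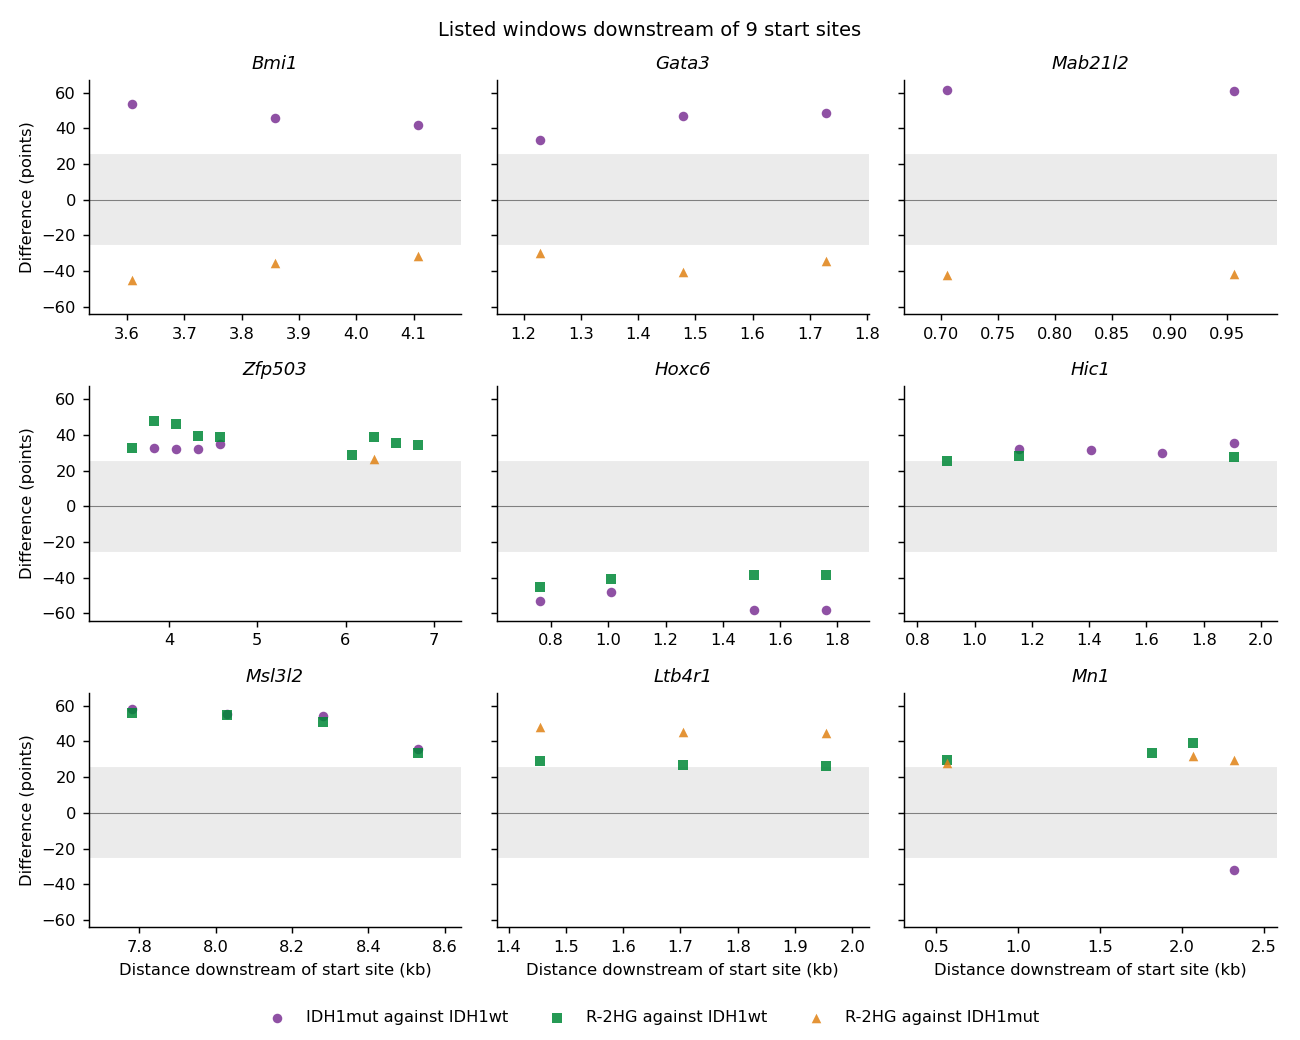
Methylation differences in percentage points (vertical axis) of all listed downstream windows of 9 genes against the distance from the start site in kb (horizontal axis, scaled to each gene). Purple circles are IDH1mut against IDH1wt, green squares R-2HG against IDH1wt and orange triangles R-2HG against IDH1mut, with the grey band under 25 points; Bmi1, Gata3 and Mab21l2 show gains in IDH1mut with R-2HG below IDH1mut, while at Hoxc6 and Msl3l2 both groups are listed against IDH1wt in the same direction, with R-2HG 7.45 to 19.5 points from IDH1mut at Hoxc6 and -2.98 to -0.95 points at Msl3l2.

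Wnt ligands bind Frizzled receptors and so stabilise beta-catenin. Of the 79 Wnt genes, 4 had downstream windows for IDH1mut against IDH1wt, 3 as gains and 1 as a loss. Among the genes of all lists 3.47% were listed in this comparison. Gains alone were found at 59.8% of all genes with downstream windows. So few genes cannot carry a direction. The ligand gene Wnt7a had a gain of 40.7 points in 2 windows of identical value at 10364 and 10614 bp per the authors' deposited table (chromosome 6, 91350251 to 91351000). R-2HG was lower than IDH1mut there by -37.9 points per the authors' deposited table, and subtraction left 2.72 points between R-2HG and IDH1wt. The receptor gene Fzd2 had gains of 25 and 29.4 points at 1008 and 1758 bp for IDH1mut against IDH1wt per the authors' deposited table. R-2HG was lower than IDH1mut at Fzd2 by -28.6, -25.1, -33.8 and -33.1 points from 1008 to 2008 bp per the authors' deposited table (chromosome 11, 102466751 to 102468250). The receptor gene Fzd1 differed from these 2 genes, since it had gains for both groups against IDH1wt, 33.8 and 26.6 points at 1967 bp per the authors' deposited table. Rspo1, a secreted enhancer of Wnt signalling, was higher in R-2HG than in IDH1mut by 26.0 points at 6829 bp and lower by -29.5 points at 20829 and 21079 bp per the authors' deposited table. The loss among the Wnt genes was Fzd10, named after its values were seen, with -27.8 points at 44772 bp per the authors' deposited table.

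In the list of 89 Notch, Hedgehog and TGF-beta genes, all 4 listed for IDH1mut against IDH1wt and both listed for R-2HG against IDH1wt were losses. Over all lists 3.47% and 1.68% of genes were listed, and 59.8% and 58.6% of all genes with downstream windows had gains alone. The direction of so few genes depends on which genes the list holds. Amh, a TGF-beta family gene outside it, had gains of up to 37.6 points for IDH1mut and 28.8 points for R-2HG against IDH1wt. It was picked after its values were seen. Ski, a repressor of SMAD signalling, had -42.0 and -33.8 points at 7145 and 7395 bp for IDH1mut per the authors' deposited table (chromosome 4, 154588751 to 154589500). R-2HG had, against IDH1wt, -32.4 and -26.5 points in the same windows per the authors' deposited table. Smad9, a BMP signal transducer gene, had -27.3 points at 8749 and 8999 bp for IDH1mut per the authors' deposited table. R-2HG was higher than IDH1mut there by 26.6 points per the authors' deposited table, and subtraction put it -0.71 points from IDH1wt. Smad3, a transducer of TGF-beta, was a loss of -26.1 points at 2552 bp for R-2HG per the authors' deposited table. Notch3, a Notch receptor gene, was higher in R-2HG than in IDH1mut by 26.5 points at 22798 bp per the authors' deposited table, while a promoter window of it ran the other way. The other 2 losses for IDH1mut were Smad1 and Neurl1a, with -26.1 and -26.3 points per the authors' deposited table, and they were named after their values were seen.

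Of 110 receptor kinase and MAPK genes, 2 were listed for IDH1mut against IDH1wt and 1 for R-2HG against IDH1wt, all losses. These counts are not above the background, since 3.47% and 1.68% of genes were listed over all lists. So few genes cannot carry a direction, which depends on which genes the list holds. Map4k1, a MAPK cascade kinase gene outside it, had gains in 3 windows and no loss for IDH1mut against IDH1wt. This gene was picked after its values were seen. Dusp8, a phosphatase that acts on stress-activated MAP kinases, had -50.7, -48.7 and -44.1 points at 12440, 12690 and 12940 bp for IDH1mut per the authors' deposited table (chromosome 7, 149267751 to 149268750). R-2HG was higher than IDH1mut there by 30.3, 28.8 and 25.3 points per the authors' deposited table. By subtraction R-2HG was still -20.3 to -18.8 points from IDH1wt, so the order of the groups ran from IDH1wt over R-2HG down to IDH1mut. Ephb2, an ephrin receptor gene, had -27.7 points at 1351 and 1601 bp for R-2HG against IDH1wt per the authors' deposited table. Efnb1, which encodes an ephrin ligand, had -42.3 points at 1034 bp for IDH1mut and -29.4 points for R-2HG, each against IDH1wt, per the authors' deposited table. Of the 105 axon guidance and adhesion genes, 1 was a gain and 1 a loss for IDH1mut and 2 were losses for R-2HG, each against IDH1wt, and 1 was higher in R-2HG than in IDH1mut. Nfasc, a gene of axon adhesion on that list, had -25.7 points at 40186 bp for R-2HG against IDH1wt per the authors' deposited table. In R-2HG against IDH1mut, Flt4, a receptor of vascular growth factors, was higher by 27.6 points at 24572 bp, and the semaphorin gene Sema4f by 33.0 points at 22245 bp per the authors' deposited table (q = 0 and 0.0045). The remaining loss for IDH1mut, Erbb3 with -27.7 points at 10808 bp per the authors' deposited table, was named after its values were seen.

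Hic1, a repressor gene often silenced by methylation in cancer, had 4 gains of 32.3, 31.6, 29.7 and 35.5 points at 1155, 1405, 1655 and 1905 bp for IDH1mut against IDH1wt per the authors' deposited table. R-2HG had, against IDH1wt, gains of 25.6, 28.4 and 27.5 points at 905, 1155 and 1905 bp per the authors' deposited table (chromosome 11, 74979251 to 74980750). R-2HG was below IDH1mut by subtraction at the 2 windows that both tables hold, by -3.94 and -8.05 points. Dlc1, a tumour suppressor gene, was a loss of -34.3 points at 47497 bp for IDH1mut and of -25.6 points for R-2HG, each against IDH1wt, per the authors' deposited table (q = 3.3e-06 and 0.00067). Wwox, a gene across a fragile site, had losses of -32.5 and -32.1 points at 10701 and 10951 bp for IDH1mut per the authors' deposited table. Tumour suppressor and cell cycle genes on the list of 56 were thus split, with 2 gains and 2 losses for IDH1mut and 1 of each for R-2HG. Among the genes of all lists, 3.47% and 1.68% were listed for these groups against IDH1wt. Gains alone were found at 59.8% and 58.6% of all genes with downstream windows. Socs3, an inhibitor of cytokine signalling and the other gain, had 31.9 points at 19181 bp per the authors' deposited table, a gene named after seeing its values.

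No gene of the list for DNA methylation, TET and IDH metabolism (29 genes) and no imprinted gene of 41 had a downstream window in any comparison. Over all lists 3.47%, 1.68% and 1.98% of genes had one in the 3 comparisons, so these counts of 0 are near the background. Of 46 other 2-oxoglutarate-dependent dioxygenases, the enzyme class at which R-2HG competes, P4ha3 was listed. P4ha3, a subunit of the collagen prolyl hydroxylase, had losses of -25.1 and -28.7 points at 2973 and 3223 bp for IDH1mut against IDH1wt per the authors' deposited table (q = 0.00011 and 2.8e-13). R-2HG was higher than IDH1mut there by 34.6 and 34.9 points per the authors' deposited table, and by subtraction 9.43 and 6.13 points above IDH1wt. Over all 16 lists, 35 of 1009 genes had downstream windows for IDH1mut against IDH1wt (20 gains, 15 losses), 17 for R-2HG against IDH1wt (10 gains, 7 losses) and 20 for R-2HG against IDH1mut (13 gains, 6 losses and 1 in both directions).

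Windows in more than 1 table show which of the 3 groups stood apart, since the third difference follows from the other 2. Both tables against IDH1wt held 93 windows near 57 genes, 67 as gains and 26 as losses in each, and the third difference ran from -20.7 to 19.5 points with a median size of 5.95 points. Both tables with IDH1mut held 82 windows near 50 genes, 55 of them higher and 27 lower in IDH1mut than in IDH1wt, with a median size of 5.08 points between R-2HG and IDH1wt. Both tables with R-2HG held 33 windows near 21 genes, 13 higher and 20 lower in R-2HG than in IDH1wt, with a median size of 4.12 points between IDH1mut and IDH1wt. The window sets were 22.5% of the IDH1mut list and 44.6% of the R-2HG list for the tables that share IDH1wt, when the 2 windows in every table are added. For the tables that share IDH1mut they were 19.9% of the list against IDH1wt and 44.9% of that of R-2HG against IDH1mut. For the tables that share R-2HG they were 16.4% of the list against IDH1wt and 18.7% of that against IDH1mut. Each pair of tables shares the libraries of a group, so these overlaps are not independent results. The remaining 400 windows were in 1 table, 245 for IDH1mut against IDH1wt, 85 for R-2HG against IDH1wt and 70 for R-2HG against IDH1mut.

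**Figure D4:**
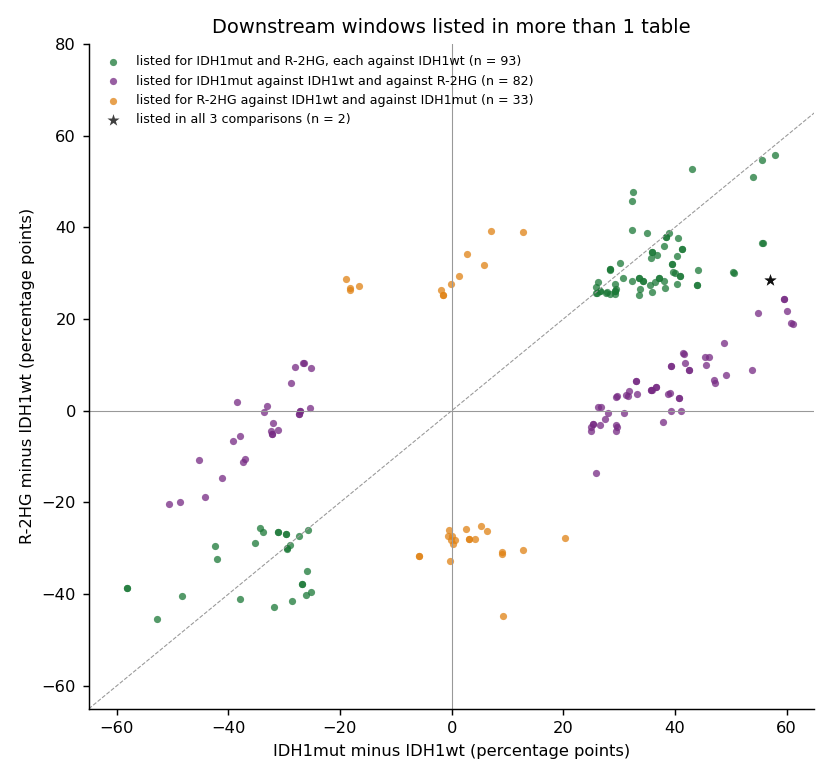
Difference from IDH1wt in percentage points of IDH1mut (horizontal axis) and of R-2HG (vertical axis) for the 210 downstream windows in more than 1 table, each point a window and the dashed line marking equal values. Where 1 of the 2 differences was not listed it was obtained by subtraction; the 93 green windows lie along the dashed line, the 82 purple windows near the horizontal axis and the 33 orange windows near the vertical axis, which follows from how the classes are defined.

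The only windows in every table were 2 of identical value near Aqp12, an aquaporin gene, at 44842 and 45092 bp (chromosome 1, 94947751 to 94948500). The authors' deposited table put IDH1mut 57.1 points above IDH1wt, R-2HG 28.5 points above IDH1wt, and R-2HG -28.6 points from IDH1mut. Methylation in R-2HG thus lay midway between the other groups. Gbx2, Mn1, Ppp4r2 and Zfp503 were the other genes with downstream windows in all 3 tables, but at different windows. Ppp4r2, a phosphatase subunit gene, had gains of 29.4 and 25.5 points at 49621 bp for IDH1mut and R-2HG against IDH1wt, and -25 points at 45621 bp for R-2HG against IDH1mut, per the authors' deposited table.

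Of the windows shared by both groups against IDH1wt, Msl3l2, a gene similar to the dosage compensation factor gene Msl3, had the largest gains. From 7780 to 8530 bp it had 57.9, 55.6, 54.0 and 35.7 points for IDH1mut and 55.8, 54.6, 51.0 and 33.3 points for R-2HG per the authors' deposited table (chromosome 10, 55834501 to 55835750). By subtraction, R-2HG was -2.98 to -0.95 points from IDH1mut there. Reads of this gene may be shared with its near-identical relatives, and how such reads were treated is not given in the sources used here. Fdft1, which encodes squalene synthase of cholesterol synthesis, had 50.4 and 50.7 points for IDH1mut and 30.2 and 30 points for R-2HG at 12631 and 12881 bp per the authors' deposited table. Mtss1, an actin regulator gene, had 43.1 points for IDH1mut and 52.7 points for R-2HG at 3582 bp per the authors' deposited table (q = 4.8e-06 and 7.5e-10). Gabbr1, a receptor of the transmitter GABA, had 35.2, 36.4 and 44.2 points from 3592 to 4092 bp for IDH1mut per the authors' deposited table, of which the last window was listed for R-2HG with 30.6 points. Cdk5rap1, a tRNA-modifying enzyme gene, had 44.0 points for IDH1mut and 27.5 points for R-2HG in 2 windows of identical value per the authors' deposited table (q = 2.0e-14 and 1.9e-05).

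Of the windows where IDH1mut stood apart, Lrfn1, a synaptic adhesion gene, had gains of 38.2, 54.8 and 60.1 points from 14746 to 15246 bp for IDH1mut against IDH1wt per the authors' deposited table. R-2HG was lower than IDH1mut at the last 2 by -33.4 and -38.3 points per the authors' deposited table, but by subtraction still 21.4 and 21.8 points above IDH1wt. Chrnb1, an acetylcholine receptor subunit gene, had 59.6 points for IDH1mut against IDH1wt and -35.2 points for R-2HG against IDH1mut at 10440 and 10690 bp per the authors' deposited table, which left R-2HG at 24.4 points, just under the threshold. At these 2 genes and at Mab21l2, R-2HG was therefore between the other groups. Crybb3, a lens crystallin gene, had 49.1 and 47.2 points for IDH1mut against IDH1wt at 5105 and 5355 bp and -41.2 points for R-2HG against IDH1mut at both per the authors' deposited table. Col5a3, a collagen gene, had 46.2 and 45.5 points for IDH1mut and -34.4 and -33.8 points for R-2HG against IDH1mut at 27229 and 27479 bp per the authors' deposited table. At Crybb3 and Col5a3 subtraction put R-2HG 6.01 to 11.8 points above IDH1wt.

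Of the windows where R-2HG stood apart, Ltb4r1, a receptor of the leukocyte attractant leukotriene B4, had gains of 28.8, 26.8 and 26.4 points from 1454 to 1954 bp for R-2HG against IDH1wt per the authors' deposited table (chromosome 14, 56386251 to 56387250). R-2HG was higher than IDH1mut there by 47.8, 45.1 and 44.6 points per the authors' deposited table, and subtraction put IDH1mut -19.0 to -18.2 points from IDH1wt. IDH1wt was therefore between the other groups at Ltb4r1. Fmn1, an actin-nucleating formin gene, was lower in R-2HG by -27.7, -30.3 and -28.0 points than in IDH1wt and by -48.1, -43.2 and -31.1 points than in IDH1mut from 36360 to 36860 bp per the authors' deposited table. Kcnj14, a potassium channel gene, was lower in R-2HG by -44.7 points than in IDH1wt and by -54.0 points than in IDH1mut at 4868 bp per the authors' deposited table (q = 2.9e-11 and 4.4e-05). Cpne5, a copine gene, was lower in R-2HG by -31.2 and -30.9 points than in IDH1wt and by -40.2 and -40 points than in IDH1mut at 47986 and 48236 bp per the authors' deposited table. Rhbdd2, a rhomboid-family gene, was higher in R-2HG by 34.3 points than in IDH1wt and by 31.5 points than in IDH1mut at 25229 bp per the authors' deposited table.

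Some further large differences were in 1 table. Vmn1r52, a vomeronasal receptor gene, had the largest downstream gain for R-2HG against IDH1wt, 62.0 points in 2 windows of identical value at 6293 and 6543 bp per the authors' deposited table. At Snx6, which encodes a sorting nexin, lay the largest downstream loss, -61.9 points at 12150 and 12400 bp per the authors' deposited table (q = 1.3e-07). Wipi1, an autophagy gene, had -49.2 points at 21454 bp for R-2HG against IDH1wt per the authors' deposited table, with a q of 0.0079. Most q-values here were far smaller, since the authors' p was 0 for 73.7%, 70.9% and 80.7% of the downstream windows of the 3 comparisons. Elovl6, a fatty acid elongase gene, was higher in R-2HG than in IDH1mut by 47.1 points at 45949 bp per the authors' deposited table (q = 0.00010). Ppp1r13l, an inhibitor of p53, was lower by -43.0 points at 2688 bp per the authors' deposited table (q = 5.5e-09). Ahdc1, an AT-hook protein gene, had 26.3, 33.3, 34.2 and 32.3 points from 27082 to 27832 bp for IDH1mut against IDH1wt per the authors' deposited table.

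A few genes had downstream windows in both directions, 4 for IDH1mut against IDH1wt, none for R-2HG against IDH1wt and 1 for R-2HG against IDH1mut. Igsf21, a synaptic immunoglobulin gene, had gains of 35.0 and 35.2 points at 31727 and 31977 bp and losses of -36.9 and -37.4 points at 41727 and 41977 bp for IDH1mut per the authors' deposited table. Gbx1, a homeobox gene that lay outside the lists, had losses of -38.9 and -38.8 points at 15917 and 16167 bp and a gain of 29.8 points at 21667 bp for IDH1mut per the authors' deposited table. Its paralogue Gbx2, which patterns the midbrain and hindbrain boundary, had a loss of -33.1 points at 2252 bp and a gain of 26.0 points at 7752 bp for IDH1mut per the authors' deposited table. Both Gbx genes thus had losses nearer to the start site than gains. At 7752 bp Gbx2 also had a gain of 25.6 points for R-2HG against IDH1wt, and at 2252 bp R-2HG was 34.2 points above IDH1mut per the authors' deposited table. Ptchd2, a gene of the patched-domain family, had a gain of 27.5 points at 15825 bp and losses of -28.2 points at 30825 and 31075 bp for IDH1mut per the authors' deposited table. Rspo1, given above, was the gene with both directions for R-2HG against IDH1mut.

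At the lower bound of the distance, the windows just inside for IDH1mut against IDH1wt were near Mos, Ccdc79 and Frk at 503, 538 and 547 bp, with 32.6, 36.8 and 36.0 points per the authors' deposited table. Those just below it, near Acd, Egf and Gcc1 at 496, 491 and 475 bp, had -26.7, -34.5 and 43.7 points per the authors' deposited table. For R-2HG against IDH1wt the window just inside the lower bound was at 508 bp of Nol7, a nucleolar protein gene, with 50 points and a q of 0.0034 per the authors' deposited table. For R-2HG against IDH1mut it was at 524 bp of Sh3tc2, with -34.3 points per the authors' deposited table. In that comparison Lepr at 491 bp, just below the bound, had 27.6 points, and Cpne5 and Ece1 at 48236 and 51351 bp were the nearest on either side of the upper bound, the latter with -28.7 points per the authors' deposited table. At the upper bound Ppp4r2 at 49621 bp was the farthest for both groups against IDH1wt, and the next windows outside were near H2afb1 at 50324 bp with -31.3 points for IDH1mut and near Epb4.1l3 at 50853 bp with 31.2 points for R-2HG per the authors' deposited table.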

How the data were processed

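RRBS libraries had been made from 6 samples (3 groups of 2) and sequenced on a lane each, per the labels' protocols. Per the submitters' processing notes, the mouse build was mm9 and the tools were methylKit 0.9.1, BSMAP and Trim Galore. The sources used here do not give settings, coverage filter, test or pooling of replicates. Per the file headers, the authors deposited a p-value and a q-value per 500 bp window. As deposited by the authors, the methylation difference is a score with a sign, in percentage points. The distance to the nearest start site was also taken as deposited by the authors.

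Windows repeated in a table (64, 4 and 1 rows) were counted once, and no downstream window was among them. The table of IDH1wt with R-2HG was multiplied by -1. Counts, medians, loci joined within 1000 bp and remaining differences by subtraction were computed with Python 3.11.15 and pandas 2.3.3, and joining and sign order were tested on made-up windows. The planned design held no test, since no values per library were analysed. Whether the 2 libraries of each group stem from separate mice is not stated. Read depth is unknown, so precision cannot be given.

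The members, the 16 gene lists and the rules were chosen with earlier results of these data known. Named by rule were, per comparison, genes with at least 4 windows, those of the 5 largest gains and losses, up to 20 list members and genes with both directions. Genes of windows in every table, the 8 largest of each class in 2 tables and those nearest the distance bounds were added.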

Additional observations from a re-analysis of the deposited data

How the results depend on the processing

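No paired analysis was possible because the tables hold differences between groups and no value per library, and for the same reason the fit with a replicate block and the runs without each replicate were not run. With an upper bound of 20000 bp, the share of gains for IDH1mut against IDH1wt moved from 63.5% to 68.4%, and 122 of 187 windows were left for R-2HG against IDH1mut. With differences of at least 30 points, 202, 87 and 90 windows were left in the 3 comparisons, and the share of gains for IDH1mut against IDH1wt became 69.3%. Counted as loci joined within 1000 bp the numbers were 275, 135 and 118, within 5000 bp 275, 133 and 117, and as genes 271, 133 and 116. With at least 30 points in both tables, 36 of 93 windows were left for both against IDH1wt, 37 of 82 for both with IDH1mut and 7 of 33 for both with R-2HG. These smaller numbers follow from counting fewer or joined windows. No alternative moved a share of gains across 50%. A lower bound just above 2000 bp, q of at most 0.001, leaving out repeated rows, and counting windows of identical value once (added after the data were seen) gave shares of 60.2% to 64.1% for IDH1mut against IDH1wt, 60.1% to 62.1% for R-2HG against IDH1wt and 33.1% to 38.2% for R-2HG against IDH1mut, with counts within 1.5 times. Of the 113 largest differences of named genes, 28 had no value left with the bound of 20000 bp, 25 with the lower bound just above 2000 bp (where 1 other moved), 37 with at least 30 points and 4 with q of at most 0.001. With the bound of 20000 bp 2 reversed, at genes with both directions: Ptchd2 for IDH1mut against IDH1wt (27.5 points) and Rspo1 for R-2HG against IDH1mut (26.0 points). Unknown depth limits every value here.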
